A study of Mus musculus with 6 samples.

Results

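The 5' half-molecules (5'-halves) of nuclear-encoded tRNAs were examined in smooth muscle cells of the mouse pulmonary artery, which set the tone of that vessel, taken as primary cultures. A 5'-half was taken as a sequence of 30 to 40 nt whose every annotation in the deposited table placed it at the 5' end of a mature nuclear tRNA. The choice used length and annotation only, not the counts. Of the 38798 distinct tRNA-derived small RNAs (tsRNAs) in the table, 547 met it. They came from 44 tRNA families (an amino acid with its anticodon) in 21 amino acid groups, with the initiator tRNA (iMet) and the selenocysteine tRNA (SeC) counted as groups of their own. Of the 547 sequences, 23 were annotated to more than 1 family and held 6.53% of the 5'-half counts, and 0 were annotated to more than 1 amino acid. Most of these families are encoded by several gene copies, so that their 5'-halves have no single genomic position. RefSeq lists 14 Gly-GCC genes on 7 chromosomes and 11 Val-CAC genes on 6. Many of the 547 are nested, since they share a 5' end and differ only in their last base, so that they are not independent measurements.

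Wild type cells were either grown in normoxia, meaning standard culture, or kept at 3% O2 for 24 hours (hypoxia), with 3 biological replicates per group. Both groups were cloned by Pandora-seq, in which enzymes remove RNA modifications that block adapter ligation and reverse transcription. The comparison was made to find tsRNAs that respond to low oxygen. The sources used here do not give the number of animals, any pooling or the passage of the cells, and the table holds no protein-coding genes, so that the labelled cell type was not checked against its markers.

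A tRNA half-molecule arises when a ribonuclease, angiogenin being the best known in mammals, cuts a mature tRNA in the single-stranded anticodon loop, often during stress. In the standard numbering of tRNA bases this loop spans positions 32 to 38 and the anticodon positions 34 to 36. The last base of a 5'-half therefore marks where the cut, or any later trimming, left it. 5'-halves of the glycine and glutamate tRNAs are known to be abundant in many mammalian tissues and fluids, and 5'-halves that start with a run of G, as in the alanine and cysteine tRNAs, are known for holding back translation initiation.

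The following sequences carry many of the counts or define a cut position. They are written 5' to 3' as in the deposited table, with the anticodon bases that the 5'-half still holds in capitals. A 5'-half with no capitals ends before the anticodon or, for iMet, has an anticodon that was not placed. The first 5 are among the 10 most abundant 5'-halves and stand in order of their mean level.
Gly-GCC, 34 nt: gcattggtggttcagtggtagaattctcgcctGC
Gly-GCC, 35 nt: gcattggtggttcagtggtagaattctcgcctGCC
Glu-TTC, 36 nt: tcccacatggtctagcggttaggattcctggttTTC
Gly-GCC, 32 nt: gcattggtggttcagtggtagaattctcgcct
Gly-GCC, 33 nt: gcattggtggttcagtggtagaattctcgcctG
The next 7 are the most abundant 5'-halves of other amino acids.
Val-AAC or Val-CAC, 30 nt: gtttccgtagtgtagtggttatcacgttcg
Pro-AGG, Pro-CGG or Pro-TGG, 32 nt: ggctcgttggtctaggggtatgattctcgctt
Gln-CTG, 40 nt: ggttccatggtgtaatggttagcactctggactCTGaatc
Lys-CTT, 35 nt: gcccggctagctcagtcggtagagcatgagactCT
Asp-GTC, 34 nt: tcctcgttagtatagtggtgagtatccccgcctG
Cys-GCA, 32 nt: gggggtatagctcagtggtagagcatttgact
iMet-CAT, 31 nt: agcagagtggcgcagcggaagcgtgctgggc
A further pair was chosen after its values were seen, because it shows a second glutamate sequence with the same end and a glutamine family with another end.
Glu-TTC, second sequence, 36 nt: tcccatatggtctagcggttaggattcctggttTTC
Gln-TTG, 33 nt: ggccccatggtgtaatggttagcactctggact

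Levels are given in CPM, the counts of a sequence scaled to the same total of tsRNA counts in every library. Library totals ranged from 330787 to 2563749 counts, and the 5'-halves held 29935, 256108 and 209583 counts in hypoxia replicates 1, 2 and 3 and 17468, 227097 and 121764 in normoxia. Both libraries numbered 1 were the shallowest and stood apart from the other 4. Mitochondrial tRNA fragments took 15.3% and 14.4% of their counts, against 5.999% to 7.33% elsewhere, and nuclear 5' ends of all lengths 32.9% and 30.6%, against 51.4% to 55.7%.

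5'-halves of tRNA-Glu and tRNA-Gly together made up 62.2% to 85.1% of the 5'-half counts of a library. 5'-halves of tRNA-Glu, the glutamate tRNA, reached 22148, 56963 and 66818 CPM in hypoxia and 20536, 56106 and 35136 CPM in normoxia. In each group replicate 1 was lowest, and the groups overlapped. 5'-halves of tRNA-Gly followed, at 14307, 23175 and 37291 CPM in hypoxia and 13704, 30439 and 24145 CPM in normoxia, again lowest in replicate 1 and overlapping. The 10 most abundant sequences, all from glutamate and glycine tRNAs, held 46.4% to 61.9% of the 5'-half counts. Counts were steeply graded: 18 of the 547 5'-halves had a mean of at least 1000 CPM, 186 a mean of at least 10 CPM, and 198 fewer than 10 counts over all 6 libraries.

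Valine 5'-halves were the third group in most libraries, at 4862, 9829 and 9399 CPM in hypoxia and 3879, 7019 and 5564 CPM in normoxia. Lysine 5'-halves had 801 to 2139 CPM, cysteine 5'-halves 770 to 1450 CPM and iMet 5'-halves, from the tRNA that starts every protein, 304 to 607 CPM. The remaining groups were small. The most abundant leucine 5'-half, a Leu-CAG sequence of 35 nt, had a mean of 86.7 CPM, the most abundant arginine 5'-half, an Arg-CCG sequence of 33 nt, 34.6 CPM, and the most abundant serine 5'-half, a Ser-GCT sequence of 35 nt, 11.7 CPM. Alanine 5'-halves did not exceed 19.1 CPM in any library.

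Many groups had the libraries numbered 1 outside the range of the other 4. Valine 5'-halves had 4862 and 3879 CPM there, against 5564 to 9829 CPM, and lysine 5'-halves 1009 and 801 CPM, against 1523 to 2139 CPM. Leucine, iMet and cysteine 5'-halves were also lowest there, cysteine only just (853 CPM in normoxia 1, 858 CPM in normoxia 3). Arginine and serine 5'-halves were highest there. The level of 3 further groups followed the replicate number as well. Proline 5'-halves had 10329 CPM in hypoxia 1 and 8788 CPM in normoxia 1, but 1038 and 1123 CPM in hypoxia 2 and 3 and 881 and 574 CPM in normoxia 2 and 3. Aspartate 5'-halves had 4078 and 3056 CPM in the libraries numbered 1 and 348 to 554 CPM in the other 4. Glutamine 5'-halves went the other way, with 137 and 139 CPM in the libraries numbered 1 and 3303 to 4976 CPM in the others. In each of the 3 groups the libraries numbered 1 lay outside the range of the other 4, and hypoxia and normoxia overlapped. The Gln-TTG 5'-half of 33 nt had 0 counts in both libraries numbered 1, which allows up to 5.88 CPM in hypoxia 1 and 9.07 CPM in normoxia 1 (3 counts of the library, counting error only), against 1005 to 1450 CPM in the other 4.

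The share of each amino acid's own 5' end counts, of any length in the table, that fell at 30 to 40 nt compares long with short fragments of the same tRNAs within a library. It differed widely between tRNAs. For tRNA-Gly it was 53.8%, 59.7% and 67.4% in hypoxia and 49.96%, 63.0% and 63.5% in normoxia. For tRNA-Glu it was 39.3%, 70.1% and 74.5% against 36.3%, 68.7% and 55.7%. 5'-halves were thus the larger part of the glutamate 5' fragments in the libraries numbered 2 and 3 and of the glycine 5' fragments in every library but normoxia 1, where the share was even. Glutamine 5'-halves made up 41.9% to 46.6% of glutamine 5' ends in the libraries numbered 2 and 3 but 12.9% and 19.0% in those numbered 1. The share was 24.6% to 42.9% for valine, 20.8% to 34.2% for cysteine, 15.7% to 23.1% for proline and 3.67% to 6.11% for lysine.

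Alanine was the opposite case. Its 5' fragments under 30 nt were among the most abundant in the table, at 25143 to 256927 CPM, yet at most 0.0406% of its 5' end counts were 5'-halves. Serine, with 33306 to 40202 CPM of shorter 5' fragments, had at most 0.446% in 5'-halves, and leucine, with 18259.5 to 21649 CPM, at most 1.22%. Tryptophan, with 2691 to 11998 CPM of shorter fragments, had at most 1.49%. These 4 tRNAs therefore gave many 5' fragments but few of 30 to 40 nt.

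Whether this share differed with oxygen was tested for each amino acid but SeC with two-sided exact permutation tests, whose smallest p with 3 against 3 libraries is 0.1. The share was higher in hypoxia without overlap for aspartate, at 14.4%, 19.2% and 15.8% against 14.1%, 13.1% and 14.1% (exact p = 0.1, adjusted 1). This was 1 of 20 amino acids, or 5.0%, and 0.0% were lower without overlap. Over all amino acids together, 5'-halves held 17.8%, 19.4% and 23.6% of nuclear 5' end counts in hypoxia and 17.2%, 19.3% and 13.4% in normoxia. That is 20.3 ± 2.98% against 16.6 ± 2.97% (SD, n = 3 per group), higher in hypoxia in all 3 same-numbered pairs, though the first 2 pairs differed little and the groups overlapped (exact permutation p = 0.2).

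The last base of each 5'-half was placed in the standard numbering for 491 of the 547 sequences, which held 98.8% to 99.2% of the 5'-half counts in each library. Most ends lay at positions 30 to 36, from a little 5' of the loop to the last anticodon base. 5'-halves that end before the anticodon, at position 33 or earlier, held 43.8% to 51.9% of the placed counts. Those that end inside the anticodon, with 1 or 2 of its bases, held 21.8% to 33%, and those that keep the whole anticodon 21.9% to 29.3%. The most used last bases were position 36, the third anticodon base (19.0% to 23.7%), position 35 (15.7% to 22.5%) and position 31 (16.4% to 19.7%). Position 37 and beyond was rare except at position 40.

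End patterns differed between tRNAs. Several also differed between the libraries numbered 1 and the other 4, those of valine, proline and glutamine among them. Glutamate 5'-halves had 2 main ends. The 31 nt form stops at position 31, before the loop, and held 22.1% to 34.6% of glutamate 5'-halves. The 36 nt form stops at position 36, after the full anticodon, and held 27.0% to 31.1%. Lengths between them were less used, with 8.07% to 13.4% at 32 nt, 6.55% to 10.9% at 33 nt, 2.26% to 2.87% at 34 nt and 7.07% to 10.7% at 35 nt, while 30 nt held 9.16% to 13.9%. Each length from 37 to 40 nt held at most 0.944% in any library.

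Both Glu-TTC sequences, which differ from each other in 1 base, had a mean over the 6 libraries of 42.5% and 42.7% at 36 nt and of 14.9% and 18.3% at 31 nt. The first Glu-TTC 5'-half of 36 nt had 1028, 4329 and 5259 CPM in hypoxia and 792, 3514 and 2378 CPM in normoxia, and the second 987, 3033 and 3696 CPM against 1037, 2968 and 2153 CPM.

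Glycine 5'-halves ended mainly inside the anticodon. The 34 nt form, which stops at position 35, held 36.05% to 41.3% of glycine 5'-halves in every library. It was followed by 35 nt (13.4% to 25.6%), 32 nt (9.73% to 16.0%), 33 nt (8.60% to 19.1%) and 30 nt (9.65% to 13.5%). Lengths of 31 nt (1.74% to 4.55%), 37 nt (0.569% to 1.97%) and 38 nt (0.181% to 3.49%) were minor. A second Gly-GCC sequence, of lower level, had a mean of 38.7% at 34 nt, close to the 40.6% of the main one.

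Valine 5'-halves mostly ended before the anticodon, with 17.8% to 37.3% at 30 nt, 13.6% to 29.8% at 32 nt, 13.5% to 26.9% at 33 nt and 10.8% to 20.02% at 34 nt. The 30 nt form was higher in the libraries numbered 2 and 3 (24.6% to 37.3%) than in those numbered 1 (17.8% and 18.1%), and the 32 nt form lower (13.6% to 20.8% against 29.7% and 29.8%). Proline 5'-halves had their main end at 32 nt, position 33, the base just before the anticodon (29.4% to 37.7%). The libraries numbered 1 added 32.4% and 33.5% at 34 nt, against 9.66% to 11.0% elsewhere, and had fewer at 30 nt (2.81% and 5.74% against 20.7% to 26.1%). End patterns of these 2 tRNAs therefore followed the replicate number, as their levels did.

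Glutamine 5'-halves were unusual in their length. The 40 nt form of Gln-CTG ends at position 40, beyond the loop, and in the libraries numbered 2 and 3 held 56.96% to 70.2% of the 5'-halves of that sequence. Gln-TTG 5'-halves in the same 4 libraries instead had 75.3% to 77.4% at 33 nt, just before the anticodon, and 3.09% to 4.30% at 40 nt. In the libraries numbered 1 the Gln-TTG sequence had 2 and 0 counts, and the Gln-CTG sequence 52 and 38. Together, glutamine 5'-halves had 34.6% to 41.0% at 33 nt and 33% to 43.3% at 40 nt in the libraries numbered 2 and 3. In the libraries numbered 1, all of their 70 and 46 counts were at 40 nt.

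Lysine 5'-halves gathered at 2 ends, with 48.6% to 66.8% at 35 nt (position 35) and 15.1% to 31.4% at 36 nt (position 36). A 40 nt form held 6.60% to 9.35%. Cysteine 5'-halves had 28.5% to 44.3% at 32 nt (position 33), 13.0% to 36.4% at 33 nt and 22.9% to 32.8% at 34 nt (position 35). The main Cys-GCA sequence of 33 nt had 190 and 136 CPM in the libraries numbered 1 and 81.6 to 125 CPM in the others. Cysteine 5'-halves together were lowest in the libraries numbered 1, so that this end pattern also differed with the replicate number. Aspartate 5'-halves had 15.6% to 41.3% at 32 nt, 10.4% to 36.3% at 34 nt and 20.4% to 31.2% at 36 nt, each equal to its position. The iMet 5'-halves were short, with 20.3% to 54.2% at 30 nt and 20.7% to 54.1% at 31 nt.

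The window's edges cut the 5' fragments of some tRNAs. Nuclear 5' fragments of 29 nt, just outside, had 17016 to 27163 CPM, more than the 5151 to 14096 CPM of those of 30 nt, just inside. Glutamate fragments accounted for 10363 to 20116 CPM at 29 nt and were highest in the libraries numbered 1. At the other edge, 5' fragments of 40 nt had 393 to 2592 CPM and those of 41 nt 605 to 3742 CPM. A cut at position 40 or 41 thus lies on the upper border of the window.

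In hypoxia the 5'-halves as a whole were at 58636, 99896 and 122280 CPM, and in normoxia at 52807, 102390 and 74714 CPM. The means were 93604 ± 32285 and 76637 ± 24847 CPM (SD, n = 3 per group). The groups overlapped, and 2 of 3 same-numbered pairs were higher in hypoxia (two-sided exact permutation p = 0.5). In bulk RNA of this kind, a change in the number of cells with a fragment and a change in fragments per cell cannot be told apart.

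Each 5'-half was tested with edgeR's quasi-likelihood test over the whole table. Of the 547 5'-halves 220 had enough counts to be tested, among 6452 tsRNAs tested in all. At an adjusted p under 0.05 edgeR called 0 5'-halves higher and 0 lower, against 0.0% of all tested tsRNAs in each direction. At an unadjusted p under 0.05 it called 0 of the 220 5'-halves, against 0.279% of all tested tsRNAs higher and 0.418% lower, and without normoxia replicate 1 it called 10 higher and 2 lower, against 3.25% and 1.0% of all tsRNAs tested in that fit. Without both libraries numbered 1, a fit added after seeing the data, it called 19 higher and 3 lower, against 4.52% and 4.89% of all. At the same unadjusted level DESeq2 called 0 5'-halves higher and 2 lower, against 0.527% and 0.775% of all, and limma voom 1 higher and 0 lower, against 0.868% and 0.821%. The median log2 change of the tested 5'-halves was 0.20, beside 0.02 for all tested tsRNAs, and 140 of the 220 were above 0, beside 51.3% of all. The direction changed with either of 2 libraries left out, the median being -0.04 without hypoxia replicate 3 (112 of 235 above 0) and -0.07 without normoxia replicate 1 (111 of 237 above 0). These 220 had to pass a filter on low counts and include nested sequences, so that the medians describe them only.

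With the replicate number as a block, edgeR again called 0 5'-halves at an adjusted p under 0.05, against 0.0775% of all tested tsRNAs higher and 0.0775% lower. Unadjusted, with p under 0.05, 16 were higher (7.27% of those tested, against 3.41% of all tested tsRNAs) and 3 lower (1.36%, against 2.98%). Without pair 3 these counts were 5 and 2, against 1.91% and 1.79% of all tsRNAs, and without pair 2 they were 12 and 0, against 1.91% and 1.38%. The 16 were 6 of 36 tested glutamate sequences, 4 of 34 valine, 3 of 15 proline, 1 of 13 aspartate, 1 of 15 cysteine and 1 of 40 glycine sequences. Without any model, 54 5'-halves had the higher value in hypoxia in each of the 3 pairs of libraries with the same number, 24.5% against 15.0% of all tested tsRNAs, and 14 were lower in all 3, 6.36% against 13.4%. In 9 5'-halves hypoxia lay above normoxia without overlap (4.09% against 2.32%) and in 5 below (2.27% against 2.51%).

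Summed by amino acid, 0 of 18 tested sums of 5'-halves passed an adjusted p of 0.05 in edgeR, against 0.0% of the 294 sums tested over the whole table, and 0 had an unadjusted p under 0.05, against 1.02% higher and 1.36% lower. Glutamate 5'-halves had a log2 change of 0.46 (SE 0.98, edgeR adjusted p = 0.999), and glycine 5'-halves 0.19 (SE 0.90, adjusted p = 0.999). With the replicate block, 0 of 18 passed (0.0% of all sums in each direction), and 3 had an unadjusted p under 0.05, all of them higher, against 7.82% of all sums higher and 7.14% lower. These were valine (log2 0.58, SE 0.16, unadjusted p = 0.00983, adjusted p = 0.264), aspartate (log2 0.45, SE 0.18, adjusted p = 0.317) and proline (log2 0.53, SE 0.22, adjusted p = 0.331). Over the libraries' CPM, 0 of the sums lay above normoxia without overlap, against 2.04% of all sums, and 1 lay below, the small SeC sum, against 3.74%. Without pair 3, 1 sum of 5'-halves had an unadjusted p under 0.05, a higher one, against 5.25% of all sums higher and 2.16% lower.

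Valine 5'-halves, from the tRNA that reads the valine codons, had the smallest p of the 18 sums in the fit with the block. Their CPM, given above, was higher in hypoxia by 1.25-fold, 1.40-fold and 1.69-fold in pairs 1, 2 and 3. As a share of 5'-half counts they were at 8.29%, 9.84% and 7.69% in hypoxia and 7.34%, 6.85% and 7.45% in normoxia, without overlap (exact permutation p = 0.1, adjusted 0.98 over 21 amino acids). This was 1 of the 21 groups, or 4.76%, and SeC, with 1 to 41 counts a library, was the 1 that was lower without overlap (4.76%). Sequences annotated to Val-CAC alone had 1598, 1784 and 1998 CPM against 1215, 1318 and 1227 CPM, again without overlap (exact p = 0.1, adjusted 0.9), as did 3.45% of 29 families or family groups in each direction. Of the 9 5'-halves above normoxia without overlap 4 were valine sequences. The first 3 below are nested, and the fourth differs from the second in 1 base. They are shown because their groups did not overlap. The first 3 were chosen after their values were seen, and the fourth was taken by the rule of smallest unadjusted p, which uses the same values.
Val-AAC or Val-CAC, 32 nt: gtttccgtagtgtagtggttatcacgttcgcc
Val-CAC, 34 nt: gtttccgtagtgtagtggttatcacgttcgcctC
Val-CAC, 36 nt: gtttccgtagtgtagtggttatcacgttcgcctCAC
Val-CAC, second sequence, 34 nt: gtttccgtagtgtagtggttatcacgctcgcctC
The 32 nt 5'-half had 1387, 1601 and 1858 CPM in hypoxia and 1119, 1177 and 673 CPM in normoxia (log2 change 0.75, SE 0.53, edgeR adjusted p = 0.9999). The 34 nt 5'-half had 907, 1014 and 1144 CPM against 698, 701 and 636 CPM (log2 0.60, SE 0.51, adjusted p = 0.9999). The 36 nt 5'-half had 394, 292 and 382 CPM against 290, 244 and 183 CPM, so that hypoxia 2 and normoxia 1 were nearly equal. The second 34 nt sequence had 13, 77 and 21 counts against 4, 15 and 15, or 25.5, 30.03 and 12.3 CPM against 12.1, 6.76 and 9.20 CPM. Its lowest hypoxia library and highest normoxia library were nearly equal. By contrast, the 36 nt form of that second sequence, which keeps the whole anticodon, had 15.7, 5.07 and 8.17 CPM against 15.1, 11.3 and 29.5 CPM, and its groups overlapped.

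Other 5'-halves were named because they had the smallest unadjusted p in edgeR in their direction among 5'-halves with a mean of at least 10 CPM, at most 1 per amino acid. They are shown for this reason only, and their adjusted p was 0.9999 in each case.
Cys-GCA, second sequence, 34 nt: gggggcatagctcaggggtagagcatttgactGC
Gly-GCC, second sequence, 37 nt: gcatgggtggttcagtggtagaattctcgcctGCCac
Glu-TTC, 40 nt: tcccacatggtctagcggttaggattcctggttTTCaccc
iMet-CAT, 33 nt: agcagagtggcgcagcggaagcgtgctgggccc
Gly-GCC, second sequence, 35 nt: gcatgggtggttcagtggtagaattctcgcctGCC
Lys-CTT, second sequence, 36 nt: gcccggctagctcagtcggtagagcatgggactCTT
The cysteine 5'-half had 17.6, 22.6 and 37.9 CPM in hypoxia and 3.02, 10.4 and 8.59 CPM in normoxia (log2 1.69, SE 0.83). It rests on 9, 58 and 65 counts against 1, 23 and 14, and its groups did not overlap. The glycine 5'-half of 37 nt had 19.6, 21.1 and 18.7 CPM against 12.1, 2.25 and 7.98 CPM (log2 1.56, SE 0.79), also without overlap. In normoxia 1 a count of 3 is worth 9.07 CPM, so that its 12.1 CPM lies near that limit. The Glu-TTC 5'-half of 40 nt had 29.4, 108 and 172 CPM against 21.2, 63.1 and 50.9 CPM (log2 1.19, SE 0.91), and its groups overlapped.

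Of the 5'-halves named for a lower value, the iMet 5'-half of 33 nt had the smallest p. It had 47.0, 47.2 and 39.1 CPM in hypoxia and 63.5, 83.4 and 94.5 CPM in normoxia (log2 -0.93, SE 0.60), without overlap. Its unadjusted p in edgeR was 0.162 with the group alone and 0.0483 with the replicate block. The shares of iMet 5'-halves at this length were 15.5%, 7.78% and 7.55% against 15.6%, 16.3% and 15.9%, so that the libraries numbered 1 were nearly equal and pairs 2 and 3 differed (exact p = 0.1, adjusted 0.55 over the lengths). It was 1 of 3 shares at an exact length that were lower without overlap, 3.06% of the 98 compared, and 3.06% were higher. The second glycine sequence of 35 nt (log2 -0.73, SE 0.79) and the second lysine sequence of 36 nt (log2 -0.74, SE 0.78) were lower on average, and in both the groups overlapped.

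In the most abundant glycine 5'-half the spread between replicates exceeded the difference between groups. The Gly-GCC 5'-half of 34 nt had 4635, 8794 and 14455 CPM in hypoxia and 5121, 11909 and 8674 CPM in normoxia (log2 0.12, SE 0.76, edgeR adjusted p = 0.9999). Replicate 1 was lowest in each group, and the groups overlapped.

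The remaining 5'-halves named for their abundance overlapped between groups as well. The Glu-TTC 5'-half of 36 nt had a log2 change of 0.65. Gly-GCC 5'-halves of 32 and 33 nt had 0.51 and 0.38, while that of 35 nt had -0.43. The most abundant valine, proline, aspartate, cysteine and leucine 5'-halves had 0.23, 0.57, 0.79, 0.36 and 0.34, and those of glutamine, arginine, iMet and lysine -0.47, -0.61, -0.07 and -0.02. The adjusted p of edgeR was 0.9999 for each of them. The Ser-GCT 5'-half was not tested, since its counts were 15, 2 and 0 in hypoxia and 13, 0 and 1 in normoxia.

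Among 89 shares at an end position within an amino acid, 2.25% were higher in hypoxia without overlap and 2.25% lower. The 2 of these that were common rather than rare ends both belonged to glycine 5'-halves. The share that ended at position 36, after the whole anticodon, was 13.8%, 15.8% and 13.4% in hypoxia and 17.5%, 17.1% and 25.7% in normoxia. All hypoxia libraries lay below all normoxia libraries (14.3% mean against 20.1%, exact permutation p = 0.1, adjusted 0.6 over the end positions). The share that ended at position 33, the base before the anticodon, was 12.7%, 12.7% and 16.0% against 9.68%, 12.3% and 10.6%, with hypoxia above normoxia (exact p = 0.1, adjusted 0.6). These shares rest on 7304, 59414 and 63915 glycine 5'-half counts in hypoxia and 4533, 67513 and 39350 in normoxia. The 35 nt Gly-GCC 5'-half behind the first share had 1542, 3341 and 4647 CPM against 2056, 4780 and 5795 CPM and was lower in hypoxia in each pair, while the 32 nt 5'-half had 1563, 2750 and 5548 CPM against 1188, 3376 and 2331 CPM.

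Over all 5'-halves, the share that ended before the anticodon was 45.1%, 51.9% and 49.1% in hypoxia and 43.8%, 50.1% and 46.6% in normoxia, higher in hypoxia in all 3 pairs with overlapping groups (exact p = 0.5). The mean length was 33.2, 33.2 and 33.3 nt against 33.3, 33.2 and 33.4 nt (exact p = 0.7). For glutamate, the share that kept the whole anticodon was 28.6%, 31.2% and 33.3% against 29.3%, 29.5% and 29.99% (exact p = 0.4, adjusted 0.8). None of the other amino acids with a placed anticodon that were compared (glycine, valine, proline, glutamine, lysine, aspartate and cysteine) had non-overlapping groups for the shares before, inside or after the anticodon.

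Groups of tRNAs known for 5'-halves were described as lists, chosen with earlier results of these data known. The substrates of the tRNA methyltransferase DNMT2 (Asp-GTC, Gly-GCC and Val-AAC), whose methylated cytosine lies at the 3' end of the anticodon loop and is known to shield the tRNA from cleavage, held 64 of the 547 sequences, of which 48 were tested, 0 passed, and the median log2 change was 0.37. Alanine and cysteine 5'-halves numbered 60, of which 15 were tested, all cysteine, with a median of 0.36. The queuosine tRNAs (Asp-GTC, Asn-GTT, His-GTG and Tyr-GTA), which carry a modified G at the first anticodon base, held 34, of which 14 were tested. Their median was 0.74, but 13 of the 14 were Asp-GTC sequences, with a median of 0.75 by themselves. The other was 1 Tyr-GTA sequence, at -1.06. All medians stand beside 0.02 for all tested tsRNAs and 0.20 for all tested 5'-halves, of which the lists are parts. The median of all tested 5'-halves changed sign with either of 2 libraries left out, as given above. In each list 0 members had an unadjusted p under 0.05 with the group alone.

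A cut tRNA leaves a 3' partner that starts at the next base, and partners were sought among other fragments of the same family. Each 5'-half value below is that of 1 sequence. Its partners had to match that sequence only up to base 45, so they can include fragments of related sequences or families. The 2 values are thus not of like sets, and a partner value can be too high. Partners of the main Glu-TTC and Gly-GCC 5'-halves were scarce. The Glu-TTC 5'-half that ends at position 36 had a mean of 2883 CPM and fragments that start at position 37 had 471 CPM. For Gly-GCC the values at position 36 were 3693 and 215 CPM, while the most abundant glycine 5'-half, at position 35, had 8931 CPM and its partner 62.8 CPM. For Gly-GCC the next position, 37, had a partner mean of 162 CPM, higher than that of position 36 in normoxia 1 (236 against 199.5 CPM) and normoxia 3 (118 against 109 CPM).

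At position 36 the partner value was the larger in 3 other tRNAs, though it can hold fragments of related sequences. The Val-CAC 5'-half that ends at position 36 had a mean of 297 CPM and its partner 2354 CPM, with 4652, 1628 and 1443 CPM in hypoxia and 4504, 1090 and 805 CPM in normoxia. The Asp-GTC 5'-half at position 36 had 917 and 641 CPM in the libraries numbered 1 and 69.0 to 124 CPM in the others, and its partner 1262 to 4525 CPM. The Gln-CTG 5'-half at that position had 0 counts in the libraries numbered 1 and 132 to 212 CPM in the others, and its partner 662 to 1817 CPM. At main ends before or inside the anticodon of Val-CAC, Lys-CTT and Pro-TGG the 5'-half was the more abundant on average. So it was in Cys-GCA at position 33 (242 against 40.2 CPM) and Asp-GTC at position 32 (327 against 89.2 CPM). The partner was the more abundant in Asp-GTC at position 34 (355 against 416 CPM) and Gln-CTG at position 33 (138 against 333 CPM). The Val-CAC 5'-half at position 30 had a mean of 1733 CPM and its partner 44.3 CPM, and the Lys-CTT 5'-half at position 35 had 657 CPM and its partner 281 CPM. In normoxia 1 the Lys-CTT partner was the larger, at 599 CPM against 390 CPM for the 5'-half. The Pro-TGG 5'-half at position 33 had 3751 and 2706 CPM in the libraries numbered 1 and 54.6 to 162 CPM in the others, and its partner at most 7.001 CPM. The values of 5'-halves and partners were thus unequal, in either direction. How far cloning or the unlike sets affect this was not tested.

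The histidine tRNA, a known source of 5'-halves, gave 0 sequences of the 5' end class and is absent from the 547. The table instead classes as internal a 31 nt His-GTG sequence that may be read beside the 5'-halves. It was chosen after its values were seen.
His-GTG, 31 nt: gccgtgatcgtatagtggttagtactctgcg
It had 1164, 5618 and 5171 CPM in hypoxia and 1796, 6065 and 6650 CPM in normoxia, which would place it among the 5'-halves of highest level. It was lower in hypoxia in all 3 pairs, and the groups overlapped (exact permutation p = 0.5). In all, 11 internal His-GTG sequences of 30 to 40 nt shared its first 20 bases. A mature histidine tRNA is known to carry an extra G before its first encoded base, and 0 internal His-GTG sequences in the table had 1 more G before these bases.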

How the data were processed

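The deposited values are raw counts of distinct tRNA-derived sequences in 6 libraries, made by the authors. The submitters' processing notes name the build mm10, and the aligner, annotation tool and filters were not given in the sources used here. Sample titles gave the groups and the replicate numbers. Members and lists were chosen with earlier results of these data known. Counts were tested with edgeR 4.0.16 (quasi-likelihood, TMM, filterByExpr, Benjamini-Hochberg over 6452 tsRNAs or 294 sums by amino acid, class and length) in R 4.3.3, and the scripts were tested on simulated data. The simulated counts had large changes and no replicate effect. Their spread between libraries was below that of the group-only fit (edgeR common dispersion 0.706 for tsRNAs). They therefore do not show how well changes in these data would be found. Alternatives used DESeq2 1.42.0 and limma 3.58.1. Shares were compared by exact permutation tests (SciPy 1.17.1). The anticodon was found as a T followed by the named triplet in each family's own sequences. Counts of reads without molecular identifiers give counting error only. The 2 libraries of each number deviated together from their group means, with correlations of 0.81, 0.533 and 0.451 over 6452 tsRNAs. Deviations of hypoxia 2 with normoxia 3 (0.477) and hypoxia 3 with normoxia 2 (0.545) were similar. The correlations therefore set the libraries numbered 1 apart but do not tell how those numbered 2 and 3 pair. For these, the fits with the block and the counts over pairs rest on the numbers in the sample titles alone. The rule for naming took the 10 most abundant 5'-halves, the most abundant 5'-half of each amino acid with a mean of at least 10 CPM, 5'-halves past the adjusted threshold (0), and the 4 higher and 4 lower 5'-halves of smallest unadjusted p, at most 1 per amino acid in each direction. Some sequences that this rule also took, and their values, are not reported here.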

Additional observations from a re-analysis of the deposited data

How the results depend on the processing

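Counts of calls did not move: edgeR, DESeq2 and limma voom called 0 single 5'-halves and 0 sums of 5'-halves at an adjusted p under 0.05 in each of the settings run, including other scalings and filters, the replicate block, the omission of each library and, added after seeing the data, the block with the other tools, without each pair, and the fit without both libraries numbered 1. The difference in level of all 5'-halves stayed positive (2629 to 34451 CPM with each library left out, around 16967 CPM), as did the share of 5' end counts (1.97 to 4.94 percentage points) and the share that ends before the anticodon (0.230 to 3.67). The replicate block was run on these 3 values as a sign-flip test, whose smallest p is 0.25 and which leaves the difference itself as it is. The mean length changed sign with 1 library left out (-0.10 to 0.0041 nt), as did the shares inside (-3.43 to 2.41) and after the anticodon (-2.72 to 0.13), and the share inside became 0.055 with sequences of 1 family only. The causes were not tested.

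With each library left out, 11 of 22 named 5'-halves changed sign at least once: iMet of 31 nt (-0.51 to 0.53 on the log2 scale), Gly-GCC of 32 (-0.29 to 1.04), 33 (-0.18 to 0.93) and 34 nt (-0.51 to 0.59), Lys-CTT of 35 nt (-0.40 to 0.33), Pro of 32 nt (-2.00 to 3.37), Cys of 32 nt (-0.0085 to 0.82), Gln-CTG of 40 nt (-1.08 to 0.28), Leu-CAG (-0.10 to 0.81), Val of 30 nt (-0.24 to 0.68) and Asp of 34 nt (-1.84 to 2.47). Of the 18 tested sums 12 changed sign in the fit with the group alone. Among them were Asp (-0.20 to 1.22, around 0.47), Gln (-0.79 to 0.36, around -0.24), Gly (-0.45 to 0.70, around 0.19) and Pro (-0.36 to 1.51, around 0.40). The difference in the share of 5'-halves among 5' ends ranged from -0.92 to 18.7 points for Glu, -2.95 to 4.72 for Gly, -8.92 to 9.87 for Gln and -0.66 to 0.44 for Lys, and Gln gave 1.41 at 31 to 38 nt and 1.79 without both libraries numbered 1.

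The Lys-CTT 5'-half of 35 nt, at -0.02, became 0.050 with library size scaling, 0.073 with voom, 0.069 with the replicate block, 0.034, 0.032 and 0.023 with the block and DESeq2 size factors, DESeq2 or voom, and 0.071 and 0.28 with the block without pair 2 or 3. With the block and without pair 3, the 5'-halves of iMet (0.015), Gly-GCC of 34 nt (-0.28) and Gln-CTG of 40 nt (0.036) changed sign, as did the sums of Gln (0.048) and Gly (-0.11). The Asp 5'-half of 34 nt became -0.14 with the block without pair 1 and -0.18 without both libraries numbered 1. Among the 18 tested sums, 9 changed sign in at least 1 of the settings other than a library left out, most of them sums near 0. In the 2 libraries numbered 1 a count of 3 is worth 5.88 and 9.07 CPM, so that differences among 5'-halves under about 10 CPM were not detectable there.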

Other observations

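The bases on either side of the cut were read for the 5'-halves whose next base is known from a longer 5' sequence of the same family, which held 92.6% to 98.8% of the 5'-half counts. Pairs of bases with a C before or after the cut prevailed: CA had 19.996% to 23.8%, GC 16.2% to 20.7%, CC 14.2% to 20.4% and CU 8.35% to 11.1%. CA and UA are both pairs that ribonucleases of the angiogenin family often cut, and UA had 0.548% to 1.27%. GG was 9.41% and 9.14% in the libraries numbered 1 and 1.88% to 3.06% in the others. For each of these 6 pairs the hypoxia and normoxia libraries overlapped.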
